A study of Mus musculus with 2 samples.

Results

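The insulin-like growth factor (IGF) system was read here as 9 genes: the ligand Igf1, its receptor Igf1r, and the binding proteins Igfbp1 to Igfbp7. They were chosen by name, as the probe sets whose platform annotation gives exactly 1 of these symbols, and the imprinted genes Igf2 and Igf2r were left out. The 9 genes are among 18193 named genes on the array and have 25 probe sets. A probe set is the group of short probes that reports 1 transcript.

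Stromal cells of the mouse uterus on day 4 of pregnancy were compared between 2 genotypes, with 1 Affymetrix array of pooled RNA for each. The control group carried the floxed Hand2 allele, and the Hand2-null group carried the floxed allele together with PRcre, which makes Cre recombinase wherever the progesterone receptor is made, so that excision is not limited to the stroma. Hand2, a gene of the uterine stroma, encodes a transcription factor with a basic helix-loop-helix domain. The labels list PRcre and a mixed C57BL/6 and SV129 background for both groups, and no age in weeks. They therefore do not settle whether the floxed controls also carried PRcre. They give 5 mice per genotype in one place and 4 in another. Cells had been freed with enzymes and left to attach to plastic for a short time before RNA was taken, so the values describe attached cells. With 1 array per genotype there is no replicate error, no test and no p-value, and every comparison is between these 2 pools.

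IGF-I is a secreted growth factor that binds the receptor tyrosine kinase IGF1R and signals through the insulin receptor substrates, PI3 kinase and AKT. The binding proteins hold IGF-I in the extracellular space, lengthen its life and limit or deliver it to the receptor, and proteases release it from them. In the rodent uterus Igf1 is made in the stroma in response to estrogen, and the protein reaches the epithelium as a paracrine signal. In the liver the main drive of Igf1 is growth hormone.

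In the Hand2-null array the ligand was lower and its receptor and a pair of binding proteins were higher. All 4 probe sets of Igf1 were lower, by 1.58-fold to 2.26-fold. All 6 probe sets of Igfbp4 and both of Igfbp3 were lower too, by 1.18-fold and 1.19-fold in the brightest of each. Igfbp5 was 1.43-fold higher, Igfbp6 1.35-fold and Igf1r 1.30-fold, Igfbp7 differed by 1.06-fold, and Igfbp1 and Igfbp2 were not measured above the floor in either array. By the brightest probe set of each gene, 0 members were at least 2-fold higher or lower. Over the array 1.99% of the measured genes were higher by 2-fold or more, and 0.742% were lower by as much. At 1.5-fold, 1 member (Igf1) was lower and 0 were higher, where 3.32% of measured genes were lower and 6.21% higher by that much. The shares are over 10376 measured genes, those with a probe set at or above the floor in 1 array or both. The floor is the 60th percentile of an array's signals, 64.2 in the control and 67.5 in the Hand2-null array, and 7 of the 9 members passed it, with 19 of the 25 probe sets.

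**Figure D1:**
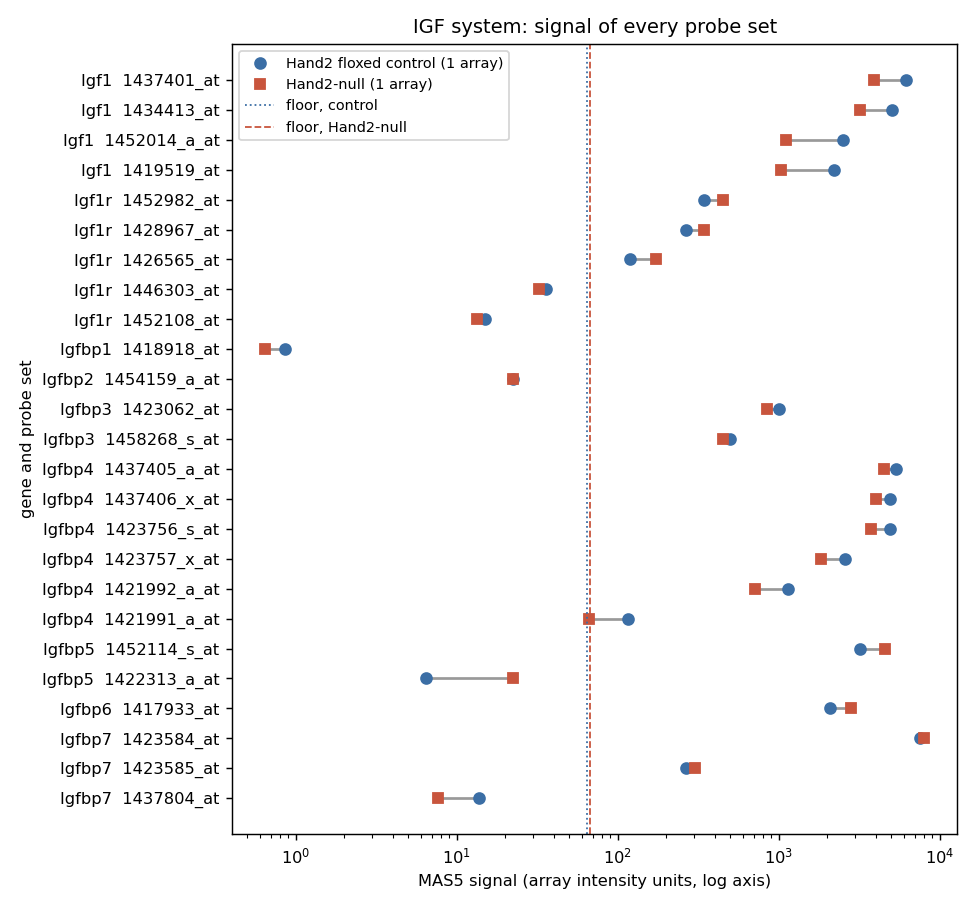
MAS5 signal on a log axis for the 25 probe sets of the 9 genes, with a circle for the control array, a square for the Hand2-null array and vertical lines at the 2 floors. All 4 Igf1 and 6 Igfbp4 probe sets have the square to the left of the circle, Igfbp5, Igfbp6 and the 3 brightest Igf1r probe sets have it to the right, and the Igfbp1 and Igfbp2 probe sets lie under the floors.

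Over the 17111 probe sets that passed both floors, log2 signals of the control and the Hand2-null array correlated with a Pearson r of 0.970. There is no replicate pair to set this value against, and probe sets are not replicates. The middle 95% of measured genes had log2 ratios of Hand2-null over control between -0.66 and 0.93, with a median of -0.03, and 44.7% of them were above 0. The standard deviation of the log2 ratio between probe sets of a gene was 0.21 over 4065 genes. It is the only error available and holds no variation between mice. Hand2 checked the labels: its bright probe set read 1545 in control cells and 38.5, below the floor, in Hand2-null cells, at least 22.9-fold lower. Precision is limited by the number of arrays.

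HAND2 binds DNA with partner proteins at E-boxes, short sites written CANNTG, so the 250 bases before the annotated start were read for Igf1 and Igfbp4, which were lower, and for Igfbp5 and Igfbp6, which were higher. They are shown to let the reader see where such letters fall, and capitals mark each CANNTG. The sequences are RefSeq's, on build GRCm38.p6, 5′ to 3′ on the strand of the gene, and all 9 members were matched by symbol. The Igf1 and Igfbp4 windows lie inside the annotated span of their genes, whose annotation begins further upstream.
Igf1 (chr10:87860861-87861110, plus strand): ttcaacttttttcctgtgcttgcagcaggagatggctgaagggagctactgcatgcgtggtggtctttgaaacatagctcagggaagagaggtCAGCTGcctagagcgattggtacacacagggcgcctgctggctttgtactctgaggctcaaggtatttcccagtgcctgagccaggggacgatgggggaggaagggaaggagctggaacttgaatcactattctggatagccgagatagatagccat
Igfbp4 (chr11:99040994-99041243, plus strand): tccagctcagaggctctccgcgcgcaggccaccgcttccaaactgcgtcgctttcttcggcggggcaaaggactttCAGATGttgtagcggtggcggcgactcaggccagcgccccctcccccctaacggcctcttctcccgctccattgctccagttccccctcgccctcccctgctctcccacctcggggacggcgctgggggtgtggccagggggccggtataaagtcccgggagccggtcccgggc
Igfbp5 (chr1:72874866-72875115, minus strand): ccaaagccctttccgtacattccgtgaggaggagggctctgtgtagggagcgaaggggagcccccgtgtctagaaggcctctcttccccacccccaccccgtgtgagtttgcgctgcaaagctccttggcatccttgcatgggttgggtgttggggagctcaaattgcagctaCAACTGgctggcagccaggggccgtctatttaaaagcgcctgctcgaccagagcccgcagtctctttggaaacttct
Igfbp6 (chr15:102143936-102144185, plus strand): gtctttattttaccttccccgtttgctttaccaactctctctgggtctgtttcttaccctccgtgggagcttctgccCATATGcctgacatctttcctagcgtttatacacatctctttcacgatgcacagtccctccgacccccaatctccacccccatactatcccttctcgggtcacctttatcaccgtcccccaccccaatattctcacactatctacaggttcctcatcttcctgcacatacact
Each of these 4 windows holds 1 CANNTG. The table has 10 windows for the 9 members, with 2 for Igfbp2. CANNTG occurred in 8 of these 10, all but those of Igf1r and Igfbp7, and in 66.2% of all 32851 windows of this length in the table. The form CATCTG, which is 1 of the CANNTG sites and was searched on both strands, occurred in the windows of Igfbp1 and Igfbp4, 2 of 10, and in 14.4% of all windows. The palindromic estrogen response element, searched on both strands, was in 0 of the 10 and in 0.0639% of all windows. A match is a run of letters and not a bound site, and the arrays did not measure binding. Among the 7 measured members, the windows with CANNTG belonged to Igf1, Igfbp3 and Igfbp4, which were lower, and to Igfbp5 and Igfbp6, which were higher. Both without it, Igf1r and Igfbp7, were higher.

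Igf1 is the ligand of the system and the member with the lowest ratio. Its brightest probe set, 1437401_at, read 6144 in the control and 3888 in the Hand2-null array, a log2 ratio of -0.66. The next, 1434413_at, had 5055 and 3205, also -0.66. Those signals were high within each array: 1437401_at stood at percentile 99.5 of all probe sets in the control and 99.2 in the Hand2-null array. The remaining pair of probe sets was dimmer and had lower ratios, at 2514 and 1114 or -1.17 for 1452014_a_at and at 2194 and 1033 or -1.09 for 1419519_at. The 4 probe sets thus fell into a pair at 1.58-fold lower and a pair at 2.26-fold and 2.12-fold lower, and the range of 0.52 within the gene was wider than the 0.36 that is the median range over the 538 genes with at least 4 measured probe sets. By its brightest probe set, 2.44% of measured genes had a lower ratio than Igf1, and by the mean over probe sets, -0.89, the share was 1.02%. In 119 of those 538 genes all measured probe sets were lower, and in 5 of them, Igf1 included, every one was at least 1.5-fold lower.

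Igf1r, the receptor through which IGF-I signals, differed the other way. Its 3 measured probe sets had 345 and 449 for 1452982_at, 267 and 342 for 1428967_at and 120 and 172 for 1426565_at, control first. The log2 ratios were 0.38, 0.36 and 0.52, so all were higher in the Hand2-null array and they spread over 0.17. The first and the second were designed on the same target sequence and are not independent readings. The remaining probe sets, 1446303_at at 35.9 and 32.5 and 1452108_at at 15.0 and 13.4, did not reach the floor in either array and are given no fold. Of these, 1452108_at shares its target with 1426565_at, the measured probe set with the highest ratio, and its unfloored log2 ratio was -0.16. By the brightest probe set of Igf1r, 11.6% of measured genes had a higher ratio. The log2 ratio of Igf1r lay 1.04 above that of Igf1, a contrast that a single scaling factor per array does not alter. On chromosome 7 the neighbour of Igf1r is Synm, an intermediate filament gene of smooth muscle, with signals of 387 and 1037 and a log2 ratio of 1.42.

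Among the binding proteins, Igfbp4, a soluble inhibitor of IGF action that the protease PAPP-A cleaves, was lower by all 6 probe sets. Its brightest, 1437405_a_at, had 5339 in the control and 4528 in the Hand2-null array, a log2 ratio of -0.24. Going down in brightness, 1437406_x_at had 4912 and 4036 or -0.28, 1423756_s_at had 4912 and 3732 or -0.40, and 1423757_x_at had 2602 and 1835 or -0.50. Then followed 1421992_a_at with 1141 and 714 or -0.68. The dimmest, 1421991_a_at, had 116 and 66.2, the second just under the floor, which makes it at least 1.72-fold lower. The size of the difference grew with every step down in brightness, so its value depends on the probe set while its direction does not. This order held in 2 of the 56 genes with at least 6 measured probe sets. Of those 56 genes, 8 (14.3%) had all measured probe sets lower, Igfbp4 included. The 6 probe sets come from 3 target sequences, a pair on each, and all carry a suffix for probes that can match several transcripts. By its brightest probe set 21.3% of measured genes had a lower ratio than Igfbp4, and by the mean over probe sets, -0.48, the share was 5.30%. Its neighbour on chromosome 11, Top2a, a topoisomerase of dividing cells, had 913 and 682, a log2 ratio of -0.42.

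Igfbp3, the main carrier of IGF-I in serum, showed a smaller difference of the same sign. Its probe set 1423062_at had 1006 and 849, and 1458268_s_at had 497 and 453, with log2 ratios of -0.25 and -0.13. Both ratios were of the order of the 0.21 between probe sets of a gene, and 20.4% of measured genes had a lower ratio. Igfbp1, its neighbour on chromosome 11 and a binding protein known from human decidua, had signals of 0.860 and 0.646, at percentiles 4.51 and 3.39 of the arrays, both under the floor. The other neighbouring coding genes, Adcy1 beside Igfbp1 and Tns3 beside Igfbp3, had log2 ratios of -0.25 and -0.16.

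Igfbp5, a binding protein that attaches to extracellular matrix and occurs in fibroblasts and smooth muscle, had the highest ratio of the members by brightest probe set. Probe set 1452114_s_at had 3218 in the control and 4599 in the Hand2-null array, a log2 ratio of 0.52, and 7.77% of measured genes had a higher one. The second probe set, 1422313_a_at, had 6.48 and 22.4, under the floor in both arrays, so the value rests on 1 probe set. Igfbp2, its neighbour on chromosome 1 and a circulating binding protein of fetal tissues, had 22.3 and 22.4, under the floor in both. Rpl37a, the other coding neighbour of Igfbp2, had a log2 ratio of -0.15. Thus Igfbp2 and Igfbp1 were both under the floor, while the member beside each of them was measured.

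Igfbp6, which prefers IGF-II to IGF-I, had 2077 in the control and 2815 in the Hand2-null array on its 1 probe set, a log2 ratio of 0.44. By that value 9.78% of measured genes were higher. Igfbp7, a relative that binds IGFs weakly and is abundant in vessels, had 7583 and 8052 on 1423584_at and 267 and 300.4 on 1423585_at. These log2 ratios of 0.09 and 0.17 were below the 0.21 between probe sets of a gene. The remaining probe set, 1437804_at, had 13.7 and 7.66, under the floor in both. Of the measured coding neighbours, Spryd3 beside Igfbp6 had a log2 ratio of 0.36. Polr2b beside Igfbp7 had -0.06, of the other sign than Igfbp7. Between binding proteins, the log2 ratio of Igfbp5 exceeded that of Igfbp4 by 0.75 and that of Igfbp7 by 0.43, and it exceeded that of Igfbp6 by 0.08, which is within the spread between probe sets.

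**Figure D2:**
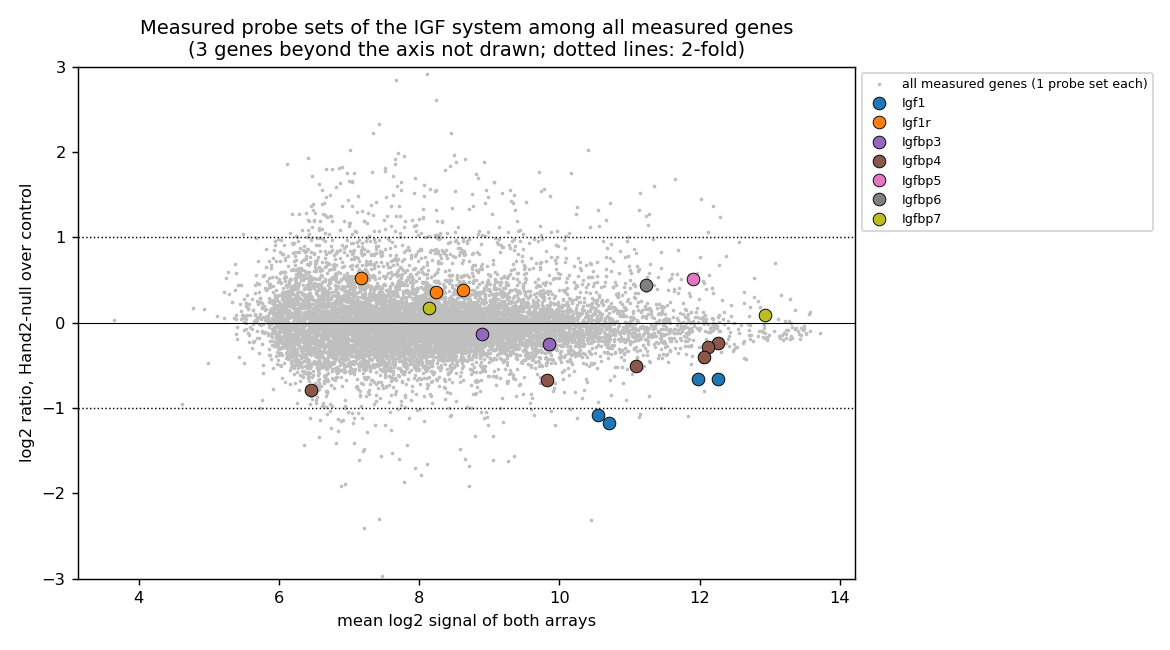
Log2 ratio of Hand2-null over control against the mean log2 signal of both arrays, with 1 grey point per measured gene, coloured points for the 19 measured probe sets of the 7 measured members, and dotted lines at 2-fold. The Igf1 points are at -0.66, -0.66, -1.09 and -1.17 among bright genes, the Igfbp4 points go from -0.24 to -0.78 as signal falls, and Igfbp5 stands highest of the bright members at 0.52; 3 genes beyond the axis are not drawn.

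Genes around the ligand were read from lists chosen by function. Of 7 proteases and partners of the binding proteins 4 were measured, 3 higher and 1 lower, and their median log2 ratio was 0.25, against -0.03 over all measured genes. Pappa, the protease that frees IGF-I from IGFBP4, had 85.2 and 131, a log2 ratio of 0.62 on 1 probe set near the floor. Its inhibitors Stc2 and Stc1, the stanniocalcins, had 49.9 and 76.7, at least 1.19-fold higher, and 75.8 and 90.1, a log2 ratio of 0.25. Adam12, a metalloprotease that cleaves IGFBP3 and IGFBP5, had 1042 and 892, or -0.22. Igfals, the acid-labile subunit of the serum IGF complex, Pappa2 and Adam28 were under the floor in both arrays.

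Genes of other proteins that share the N-terminal domain of the IGF-binding proteins were mostly higher. Of 13 listed genes 8 were measured, 7 higher and 1 lower, with a median of 0.34, and 1 was at least 2-fold higher. That gene was Htra3, a serine protease of the uterine stroma, with 477 and 1015, a log2 ratio of 1.09 on 1 probe set. The lower gene was Ccn2 (Ctgf), a matricellular protein, with 1709 and 987, or -0.79. Its relatives Ccn4 (Wisp1), with 85.1 and 119, and Ccn1 (Cyr61), with 2233 and 3032, had log2 ratios of 0.49 and 0.44. Ccn2 and Ccn1, both matricellular proteins of one family, therefore differed in opposite directions.

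Below the receptor the median difference was small, while single genes differed by nearly as much as Igf1 did by its brightest probe set. The dimmer pair of Igf1 probe sets differed by more, at -1.09 and -1.17. Of 35 signalling genes listed, 32 were on the array under 1 symbol and 31 were measured, 18 higher and 13 lower, with a median of 0.04 and 0 at least 2-fold in either direction. Gab1, a docking protein, was lowest with 412 and 262, or -0.66, and its other probe set was at -0.52. Irs1, the main substrate of the IGF-I receptor, had 1002 and 1562, or 0.64, and Irs2 had 89.2 and 128, or 0.52. Foxo1, a transcription factor that AKT keeps out of the nucleus, had 477 and 687, or 0.53, with all 3 measured probe sets between 0.40 and 0.53. Irs1 and Irs2, on 1 probe set each, and the receptor had higher signals in the array with less Igf1 signal. Gab1 was lower in that array by both of its probe sets. Insr, the insulin receptor, had 323 and 327, or 0.02 on the log2 scale, whereas the related Insrr was under the floor.

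The growth hormone arm, which drives Igf1 in liver, had 5 higher and 1 lower of 6 measured genes and a median of 0.34. Socs2, a STAT5 target that restrains growth hormone signalling, had 803 and 1470, a log2 ratio of 0.87, although its 4 probe sets ran from 0.28 to 0.98. Ghr, the growth hormone receptor, had 342 and 607, or 0.83, with a second probe set at 0.57. Cish, another STAT5 target, had 121 and 163, or 0.42, and the kinase Jak2 had 942 and 788, or -0.26. No gene of this arm reached a 2-fold difference. The estrogen receptor Esr1 and the progesterone receptor Pgr, named here outside the rule for named genes, had log2 ratios of -0.03 and -0.21 by their brightest probe sets, and other probe sets of each gene reached 0.42 and 0.16.

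**Figure D3:**
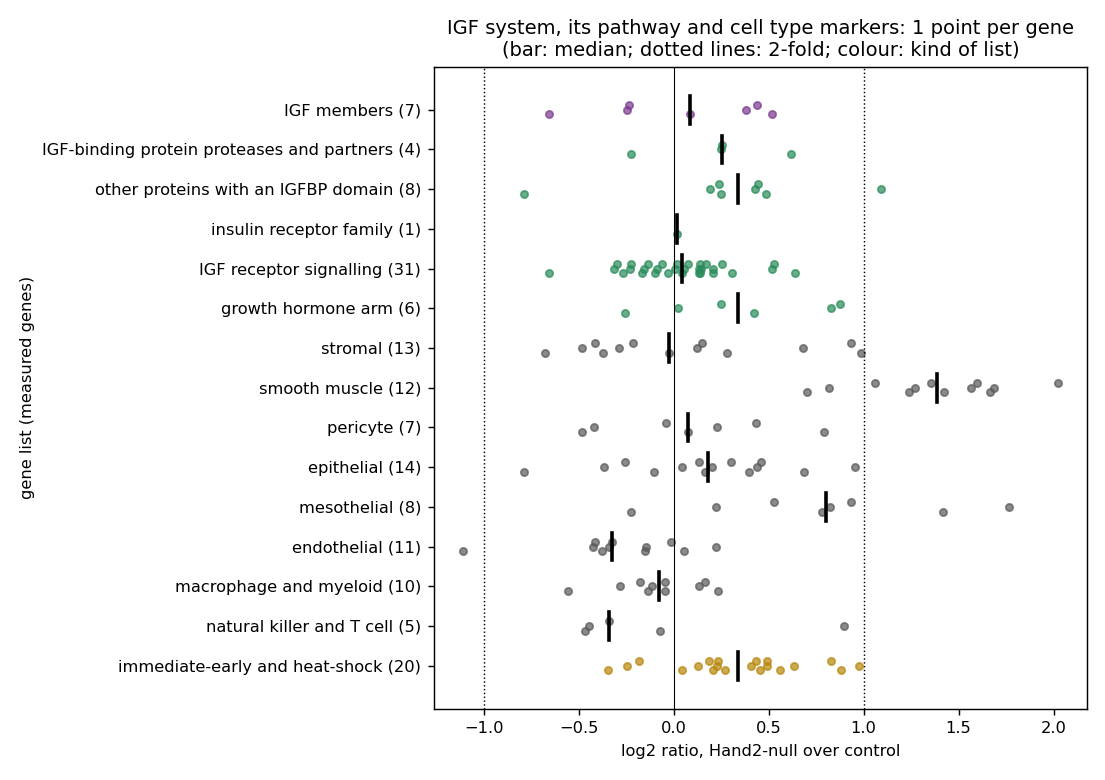
Log2 ratio of Hand2-null over control for each measured gene of the IGF members (purple), the pathway lists (green), the cell type markers (grey) and handling genes (gold), with a bar at each median and dotted lines at 2-fold. Smooth muscle markers have a median of 1.39 and lie apart from the IGF members, whose median is 0.09, and endothelial markers have a median of -0.33.

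Markers of the cell types in the preparation stood beside these values. The stromal markers were present in both arrays, with 13 of 13 measured, 6 higher and 7 lower, a median of -0.03 and summed signals of 55718 in the control and 61125 in the Hand2-null array. Among them Col1a1, a collagen chain, and Tcf21, a mesenchymal transcription factor, had the largest ratios in size, at 0.98 and 0.93. Of 13 smooth muscle markers 12 were measured and all 12 were higher, 10 by 2-fold or more, their median being 1.39, with sums of 20515 and 45991. Cnn1 and Myh11, contractile proteins, led at 2.02 and 1.68, and Actn2 was under the floor in both arrays. Because this is bulk RNA, fewer cells of a type and less RNA per cell cannot be told apart. The higher signals of Igfbp5, Igfbp6, Igf1r, Irs1 and Ghr were seen in the same array as this higher muscle signal, and its part in them was not tested.

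Other cell types were read in the same way. Mesothelial markers had 7 higher and 1 lower of 8, a median of 0.80 and sums of 1014 and 1623, led by Gpm6a at 1.77 and Upk3b at 1.42, and 5 of the 8 were under the floor in the control array. Endothelial markers had 2 higher and 9 lower of 11, a median of -0.33 and sums of 5994 and 4698, with Cdh5, the vascular cadherin, at -1.11 and Emcn at -0.43. Pericyte markers had 4 higher and 3 lower of 7, a median of 0.07 and sums of 7496 and 6474, with Cspg4 at 0.79 and Rgs5 at -0.48. Epithelial markers had 10 higher and 4 lower of 14, a median of 0.18 and sums of 8730 and 9193, with Krt19 at 0.96 and the gland factor Foxa2 at -0.79. Macrophage and myeloid markers, which mark cells that can also make Igf1, had 3 higher and 7 lower of 10, a median of -0.08 and sums of 10942 and 10457, with Fcgr1 at -0.56 and C1qb at -0.28. Markers of natural killer and T cells had 1 higher and 4 lower of 5 measured, a median of -0.34 and sums of 876 and 812, with Cd3g at 0.89 and Gzma at -0.47. Both erythroid markers on the array were under the floor. Handling genes (immediate-early and heat-shock) had 17 higher and 3 lower of 20, a median of 0.34 and sums of 53581 and 63610, with Fosb at 0.98 and Atf3 at 0.88. The part of these lists in the lower Igf1, Igfbp3 and Igfbp4 signals was not tested. Nor was their part in the higher signals of Igfbp5, Igfbp6, Igf1r, Irs1 and Ghr tested.

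The direction of each measured member held under every processing setting that gave it a value. Part of this was fixed beforehand. Moving or dropping the floor left every value unchanged, because the brightest probe set of each measured member lay above each floor. Igfbp5 and Igfbp6, with 1 measured probe set each, had no other probe set to be read by. Igf1 lay between -0.59 and -1.09 over the 10 alternatives, with the value nearest to 0 after loess normalization and the farthest with its dimmest probe set. Igfbp5 lay between 0.51 and 0.58, Igfbp6 between 0.43 and 0.50, and Igf1r between 0.34 and 0.52. Igfbp4 ranged most in proportion, from -0.16 after loess to -0.78 with its dimmest measured probe set.

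**Figure D4:**
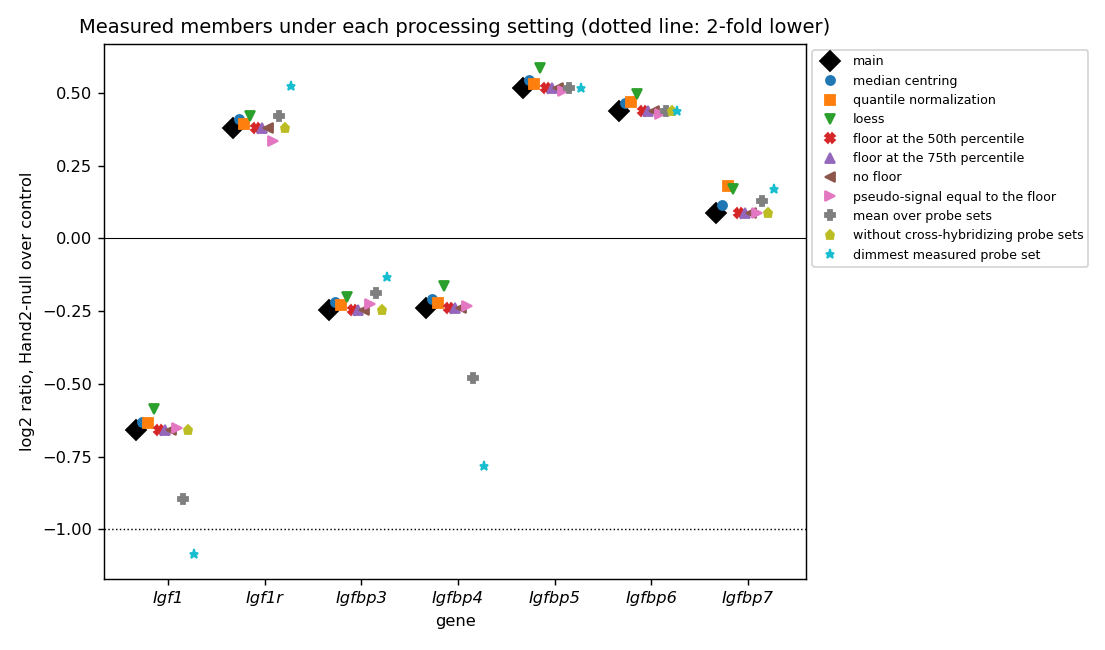
Log2 ratio of Hand2-null over control for the 7 measured members under the reported setting (black diamond) and each alternative (coloured symbols), with a dotted line at 2-fold lower. Igf1, Igfbp3 and Igfbp4 are below 0 and Igf1r, Igfbp5, Igfbp6 and Igfbp7 above 0 under each setting drawn for them, and Igf1 passes the dotted line only with its dimmest probe set, at -1.09.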

How the data were processed

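RNA of uterine stromal cells was pooled by genotype and hybridized to 1 array each, per the series design, from 100 ng of RNA per the labels' protocols. The deposited values are linear array intensity, the MAS5 signal, which per the submitters' processing notes the authors made in Affymetrix Expression Console version 1. Trimmed by 2% at each end, the signals of both arrays averaged 150.001, so each was scaled to a common mean. MAS5 subtracts mismatch probes, and ratios of dim probe sets are therefore unsteady. A genome build is not given in the sources, and detection calls were not used here.

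Of 45101 probe sets 64 were controls and left out; the platform annotation lists 1 gene for 34945, several for 932 and none for 9160 of the rest. Symbols were updated through Entrez IDs to RefSeq's GRCm38.p6 table. Signals under an array's 60th percentile were set to it, log2 ratios were taken, and the brightest measured probe set stood for its gene. A fold with 1 array under the floor is written as at least that value. A difference of 2-fold was the fixed call, and no test was made. The code was checked for errors on simulated data, which says nothing of the accuracy of the calls. Members and lists were chosen with earlier results of these data known. Named genes were all members with every probe set, Hand2, per pathway list the genes at least 2-fold different and the 4 largest ratios in size, and per marker list the 2 largest. Measured coding genes next to a member were named outside this rule. Of 182 list entries 176 were on the array under 1 symbol. Protein sequences of the members were not analysed here. The tools were matplotlib 3.10.9, statsmodels 0.14.6, pandas 2.3.3, numpy 2.4.6 and scipy 1.17.1 under Python 3.11.15.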

Additional observations from a re-analysis of the deposited data

How the results depend on the processing

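Scaling was also done by median, by quantiles and by loess (span 0.3). The floor was moved to the 50th or the 75th percentile, dropped, or added to both signals. Genes were also read by their mean over probe sets, and without every probe set whose suffix marks probes that can match several transcripts. Thresholds of 1.5-fold and 3-fold were tried. The dimmest measured probe set in place of the brightest was added after seeing the data. With a threshold of 1.5-fold 1 member, Igf1, counted as lower in place of 0, and with the dimmest probe set 1 member, Igf1, was at least 2-fold lower. The other 42 counts of members higher, lower or past 2-fold or 3-fold stayed as reported or within 1.5 times, and 0 values of members reversed. Some of these outcomes were fixed beforehand. A count of 0 at 2-fold could not rise at 3-fold, and moving or dropping the floor did not change the value of any measured member. With no floor Igfbp1 and Igfbp2 gave log2 ratios of -0.41 and 0.01, from signals under the floor. Over all genes, 206 were at least 2-fold higher and 77 lower in the reported setting, 117 and 45 with the 75th-percentile floor, and 1646 and 1626 with no floor. With the dimmest measured probe set, 198 of 10376 measured genes were at least 2-fold higher and 75 lower. Igfbp4 and Igfbp5 gave no value without the probe sets that carry such a suffix, which can also mark transcripts of the same gene. The median of the mesothelial markers was 1.39 with the 50th-percentile floor and 1.46 with none, that of natural killer and T cell markers -0.07 with either other floor, and that of stromal markers 0.20 by the mean over probe sets. Dim probe sets limit Igfbp1, Igfbp2, Pappa and the stanniocalcins, and 1 array per genotype limits all values.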

Other observations

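The ratio of Igfbp4 grew in size from its brightest to its dimmest probe set, while that of Igf1 was larger in the dimmer pair than in the brighter pair, with no such order inside each pair. Over the 538 genes with at least 4 measured probe sets, the brightest probe set had the smallest ratio in size in 142, or 26.4%, and the dimmest had the largest in 165, or 30.7%. The cause of this order was not tested.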
